A study of Homo sapiens with 6 samples.

Results

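The human mitochondrial genome encodes a small set of RNAs, and its transcripts were taken here as all genes of the deposited table whose GENCODE symbol starts with MT-. These were 37 of 58735 genes, namely 13 mRNAs, 2 ribosomal RNAs and 22 transfer RNAs. They were followed through 6 libraries of C4-2B MDVR, a prostate cancer cell line made resistant to enzalutamide, an inhibitor of the androgen receptor. Cells were treated for 2 days with DMSO as the control, with 20 uM enzalutamide, with PTUPB at 10 or 20 uM, or with either dose of PTUPB plus enzalutamide. PTUPB blocks both soluble epoxide hydrolase and cyclooxygenase-2. The labels give the enzalutamide dose for the library with enzalutamide alone, and the combinations were read as holding the same dose. Each of the 6 groups had 1 library, all groups came from the same cell line, and no second resistant line or parental line was analysed here. Differences between single libraries are therefore given as values, without a replicate check.

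The mitochondrial genome is a compact circle that is read from both strands into long precursors by the polymerase POLRMT together with TFAM and TFB2M. Transfer RNAs lie between most mRNAs and rRNAs, and cutting the precursor at the ends of the transfer RNAs releases the other RNAs. Most of these are then polyadenylated. The mRNAs encode core subunits of respiratory complexes I, III, IV and V, and the ribosomal and transfer RNAs serve their translation inside the organelle. Steady-state levels depend on synthesis, processing and decay, and the present values measure only the steady state.

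The libraries held between 20156523 and 29450436 fragments in the table, and both libraries at 20 uM PTUPB were the smallest. Markers of luminal prostate epithelium were present, with 10 of 10 at a mean of at least 1 FPKM (fragments scaled by exon length and sequencing depth). Their summed level ran from 866 to 1089 FPKM in the 4 libraries at 0 or 10 uM PTUPB and was 245 and 264 FPKM at 20 uM. Only 1 of 5 basal markers and 1 of 7 stromal markers reached a mean of 1 FPKM, and none of 7 blood and endothelial markers did, with a sum of at most 0.50 FPKM. Because RNA was taken from whole cultures, fewer cells of one kind and less RNA per cell cannot be told apart. At 20 uM PTUPB 34.2% of the 12960 genes tested differed from 0 uM, so the values of the mitochondrial RNAs there sit beside a change in a large part of the transcriptome. The part of this wider change in the mitochondrial values was not tested.

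The 5 transfer RNAs that fell between 0 and 20 uM PTUPB in the limma model described further on are shown first. Among the members, the largest effects of that dose lie in them. The sequences are the genes as annotated in GENCODE 29 (GRCh38), 5′ to 3′ in DNA letters, with the anticodon in capitals. They carry arginine (MT-TR, chrM:10405-10469), histidine (MT-TH, chrM:12138-12206), serine (MT-TS2, chrM:12207-12265), isoleucine (MT-TI, chrM:4263-4331) and alanine (MT-TA, chrM:5587-5655, minus strand).
MT-TR: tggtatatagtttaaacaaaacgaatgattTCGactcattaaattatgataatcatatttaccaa
MT-TH: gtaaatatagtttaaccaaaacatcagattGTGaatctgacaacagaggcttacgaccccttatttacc
MT-TS2: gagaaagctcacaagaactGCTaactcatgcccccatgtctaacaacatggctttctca
MT-TI: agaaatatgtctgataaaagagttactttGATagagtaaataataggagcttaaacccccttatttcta
MT-TA: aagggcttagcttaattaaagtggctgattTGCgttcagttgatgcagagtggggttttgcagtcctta

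The 3 transfer RNAs with the highest values are shown for comparison. They carry asparagine (MT-TN, chrM:5657-5729), cysteine (MT-TC, chrM:5761-5826) and proline (MT-TP, chrM:15956-16023), and all lie on the minus strand of the reference, as do 8 of the 22 transfer RNA genes.
MT-TN: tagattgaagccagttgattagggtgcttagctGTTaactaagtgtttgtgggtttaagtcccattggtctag
MT-TC: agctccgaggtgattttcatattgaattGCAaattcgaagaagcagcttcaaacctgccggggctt
MT-TP: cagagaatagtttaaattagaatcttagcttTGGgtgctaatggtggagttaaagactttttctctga

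The mitochondrial genome supplied 6.47% of all fragments in the control (95% exact binomial interval 6.46 to 6.48, which covers counting error only). Its share was 12.2% with enzalutamide, 12.4% with 10 uM PTUPB and 13.8% with both. At 20 uM PTUPB it was 5.83%, and 7.12% with enzalutamide added. The libraries thus fell into 3 with a high share and 3 with a low share, and the control belonged to the low ones. Of these fragments most were mRNA, which took 4.78% of the control library and between 9.12% and 10.4% of the 3 high libraries, but 3.73% and 3.68% at 20 uM. Ribosomal RNA did not follow the mRNA at 20 uM with enzalutamide, where its share of 3.40% was as high as in the 10 uM combination (3.35%) and above the control (1.65%). Transfer RNAs held only 0.041% to 0.096% of fragments, yet 2.01% to 3.93% of summed FPKM, since FPKM divides by their short length of 59 to 75 bases.

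The mRNAs for complex IV, cytochrome c oxidase, which passes electrons to oxygen, included the most abundant of the 13 mRNAs in every library. MT-CO1 stood at 9808 FPKM in the control, 23260 with enzalutamide, 19613 and 22549 at 10 uM PTUPB without and with enzalutamide, and 8108 and 8302 at 20 uM. MT-CO2 gave 7834, 16145, 14738, 14888, 3718 and 4551 FPKM in the same order of libraries. MT-CO3 gave 5174, 10905, 9779, 10983, 2932 and 2731 FPKM. All of the 3 were above the control with enzalutamide alone and in both libraries at 10 uM PTUPB, and below it in both libraries at 20 uM.

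**Figure D1:**
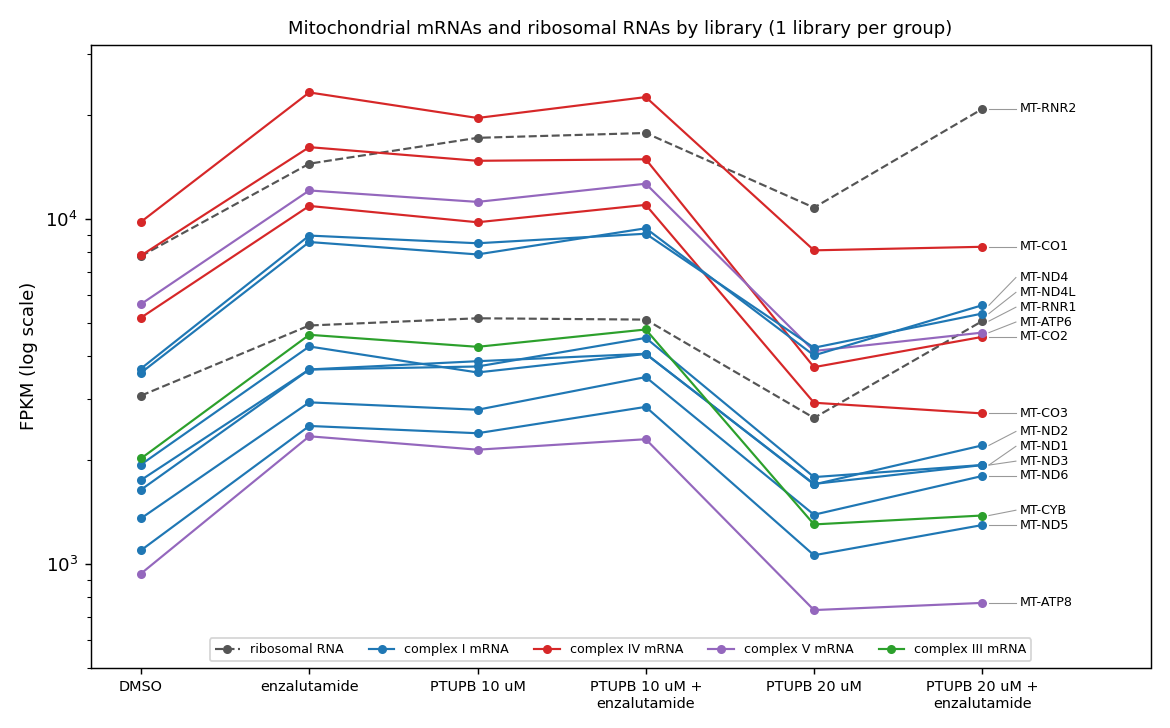
Level (FPKM, log scale) of the 13 mitochondrial mRNAs and 2 ribosomal RNAs in each of the 6 libraries, 1 point per gene and library; lines join the points of 1 gene and the libraries have no order in time. The mRNAs lie high in the enzalutamide and both 10 uM libraries, and MT-RNR2 lies above MT-CO1 in the libraries at 20 uM only (20832 against 8302 FPKM with enzalutamide).

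Complex III has 1 mitochondrial subunit, cytochrome b, encoded by MT-CYB. Its level was 2022 FPKM in the control, 4614 with enzalutamide, 4259 and 4781 at 10 uM PTUPB without and with enzalutamide, and 1302 and 1381 at 20 uM. It lay below the control in both 20 uM libraries.

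The 2 genes for complex V, the ATP synthase, overlap on the same strand with no transfer RNA between them. Reads in the shared stretch cannot be assigned to 1 of them, so the 2 values are not independent. MT-ATP6 gave 5664, 12092, 11203, 12648, 4142 and 4682 FPKM in the order used above, and MT-ATP8 gave 938, 2344, 2143, 2299, 735 and 771 FPKM. Both were below the control at 20 uM. MT-ATP8 was the lowest of the 13 mRNAs in each library.

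Complex I, the NADH dehydrogenase, takes 7 of the mRNAs. MT-ND4 stood at 3582 FPKM in the control, 8571 with enzalutamide, 7889 and 9395 at 10 uM PTUPB without and with enzalutamide, and 4023 and 5621 at 20 uM. MT-ND4L, which overlaps MT-ND4, gave 3684, 8948, 8500, 9059, 4233 and 5317 FPKM. MT-ND4 and MT-ND4L therefore stayed above the control at 20 uM, unlike the complex IV mRNAs MT-CO2 and MT-CO3. MT-ND1 gave 1641, 3659, 3735, 4520, 1785 and 1935 FPKM. MT-ND2 gave 1750, 3662, 3869, 4066, 1700 and 2206 FPKM, and MT-ND3 gave 1941, 4268, 3589, 4061, 1706 and 1934 FPKM. For MT-ND1, MT-ND2 and MT-ND3 the library with 20 uM PTUPB alone lay close to the control. With enzalutamide MT-ND3 did too, while MT-ND1 (1935 against 1641 FPKM) and MT-ND2 (2206 against 1750 FPKM) lay above it. MT-ND5 gave 1096, 2511, 2392, 2852, 1060 and 1296 FPKM. MT-ND6, the only mRNA on the minus strand of the reference, gave 1356, 2940, 2798, 3480, 1389 and 1798 FPKM, with 20 uM PTUPB alone close to the control.

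With enzalutamide alone all 13 mRNAs exceeded the control by at least 1 on the log2(FPKM + 1) scale (range 1.04 to 1.32), where 1.31% of all genes tested were higher by that margin and 1.37% lower. The 2 ribosomal RNAs were higher by 0.68 and 0.89 on the same scale. At 10 uM PTUPB 8 of 13 mRNAs passed the margin, with a median difference of 1.07 against 1.62% of genes higher and 0.772% lower. With 10 uM PTUPB plus enzalutamide 12 of 13 passed it, with a median of 1.24 against 2.71% of genes higher and 2.58% lower. These 3 comparisons share the control library, which is 1 of the 3 low ones. Where 10 uM PTUPB was already present, adding enzalutamide gave a median difference of only 0.17 and 0 of 13 mRNAs past the margin, in a comparison where 1.41% of genes were higher and 2.01% lower. Where enzalutamide was already present, adding 10 uM PTUPB likewise gave 0.05 and 0 of 13, against 2.24% and 1.57%. The highest mRNA levels of the single agents and of their combination thus lay near each other.

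The margin counts depended on how libraries were scaled. After rescaling to TPM, by which each library sums to the same total, 0 of 13 mRNAs passed the margin with enzalutamide alone (median 0.73) or with 10 uM PTUPB alone (median 0.76), and 4 of 13 with both. The same rescaling shifted the median of all genes to -0.41, -0.33 and -0.36 in these comparisons, compared with values from -0.03 to 0.00 as deposited. All 13 mRNAs were above the control in each of the 3 comparisons under all 4 scalings.

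In the additive limma model, which uses the 3 pairs of libraries with and without enzalutamide, 0 of 35 members tested passed an adjusted p of 0.05 for the enzalutamide effect, and 0.0% of all genes did. MT-TF and MT-TW, the transfer RNAs for phenylalanine and tryptophan, were below the filter of a mean of 1 FPKM. The median effect over the 13 mRNAs was 0.50 against 0.01 over all genes, with an adjusted p of 0.92 for each mRNA by limma, and 3 members (MT-TI, MT-TL2 and MT-TY) had an unadjusted p under 0.05. Without the control or without the enzalutamide library this median was 0.18, so the 2 libraries at 0 uM PTUPB carried most of it. For 10 uM PTUPB against 0 the same model also called 0 of 35 members and 0.0% of genes, with a median of 0.58 over the mRNAs and 4 members (MT-TE, MT-TL2, MT-TM and MT-TP) under an unadjusted 0.05. Without the control library this median was 0.07, and without the enzalutamide library 1.07. The limma-voom fit on recovered fragments called 0 members for either effect.

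A term for enzalutamide by PTUPB dose, linear in the dose and added to that model, called 0 of 35 members and 0.0% of genes by limma. For this term 11 members were under an unadjusted 0.05, all of them transfer RNAs. The lowest adjusted p was 0.36, and 1 residual degree of freedom remained for this test. The call depended on scaling. After rescaling to TPM 12 members were called, MT-ATP8 and 11 transfer RNAs, while scaling by total fragments gave 2 and scaling by fragments outside the mitochondrial genome gave 3. Only MT-TT and MT-TV, for threonine and valine, were called under each of these 3 scalings. MT-TT gave 11.2, 23.6, 39.0, 31.0, 16.7 and 2.48 FPKM in the order used above, and MT-TV gave 21.8, 5.64, 20.6, 11.0, 9.20 and 22.1 FPKM. MT-TT was thus lowest in the library with 20 uM PTUPB plus enzalutamide, where it held 3 fragments. MT-TV there, at 28 fragments, was near its FPKM in the control (45 fragments) and at 10 uM PTUPB alone (42 fragments).

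In the fit over all 6 libraries, more members were called between the 2 PTUPB doses than for any other effect. Between 10 and 20 uM 12 of 35 members fell at a limma adjusted p under 0.05 and 0 rose, where 16.9% of all genes fell, 16.5% rose and 33.4% changed in either direction. Counted in either direction, the members were thus called at about the share of all genes. The 12 were 5 of 13 mRNAs, 7 of 20 transfer RNAs tested and neither ribosomal RNA. The mRNAs that fell were MT-CO3 (log2 effect -1.87 ± 0.43 SE, adjusted p 0.024), MT-CO2 (-1.85 ± 0.43, 0.025), MT-CYB (-1.75 ± 0.40, 0.024), MT-ATP8 (-1.56 ± 0.40, 0.034) and MT-ATP6 (-1.43 ± 0.42, 0.047), that is, mRNAs of complexes IV, III and V. None of the 7 complex I mRNAs passed, with effects from -0.86 for MT-ND4 to -1.16 for MT-ND5 and a lowest adjusted p of 0.056 by limma, so the complexes were not shown to differ by these calls. MT-CO1 at -1.36 ± 0.48 (adjusted p 0.076) did not pass either. The calls of MT-ATP8 and MT-ATP6 are not independent, since these genes overlap. These p-values set each effect against the departure from additivity over 6 libraries (2 residual degrees of freedom), since no group had a second library. On simulated data the share of false calls of this fit exceeded the nominal level, so calls near 0.05 are uncertain.

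The count of mRNAs called between the doses was not stable, though the direction was. It was 13 of 13 after rescaling to TPM, 11 when scaled by total fragments or by fragments outside the mitochondrial genome, 12 by limma-voom on recovered fragments and 0 without the filter on low genes. It was also 0 without the 10 uM PTUPB library, without the 20 uM PTUPB library or without the 20 uM combination, and 4 to 7 without any 1 of the other 3. The median effect over the 13 mRNAs stayed between -0.94 and -1.44 in all of these fits. Library by library, 20 uM lay below 10 uM by a median of 1.19 on the log2 scale without enzalutamide, with 12 of 13 mRNAs lower by at least 1, against 13.1% of genes lower and 9.27% higher. With enzalutamide the median gap was 1.22 and 9 of 13 passed, against 14.7% lower and 13.7% higher.

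**Figure D2:**
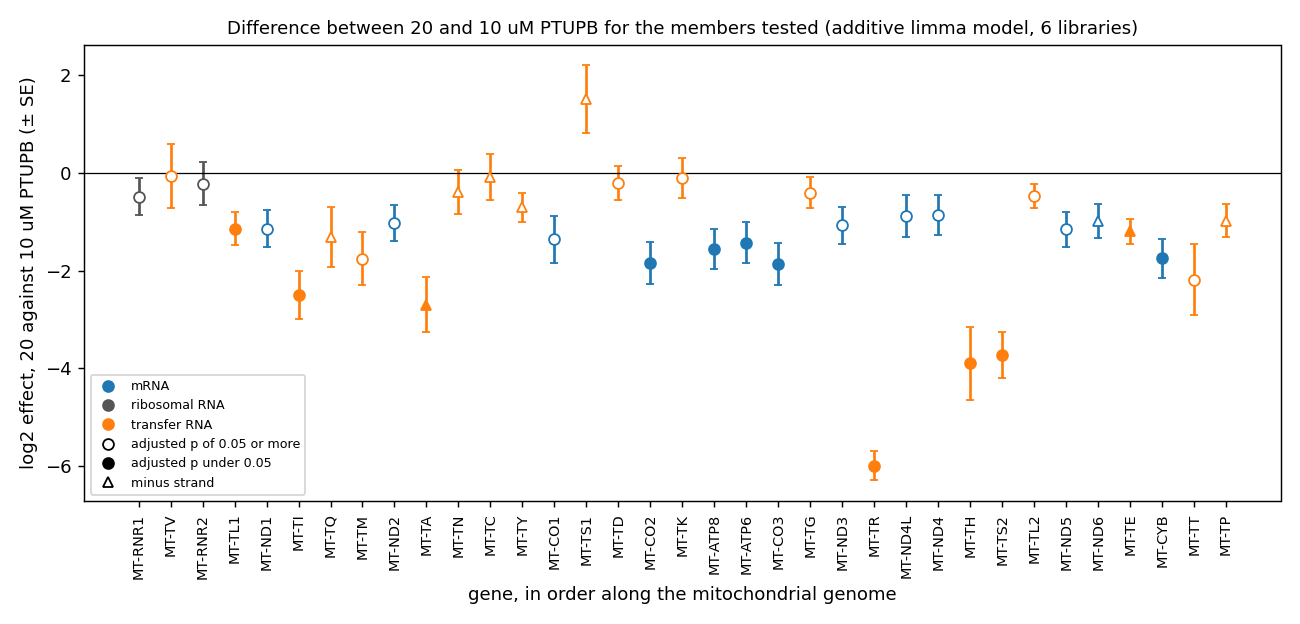
Difference between 20 and 10 uM PTUPB (log2 effect ± SE, additive limma model over 6 libraries) for the 35 members tested, in order along the genome; filled symbols mark an adjusted p under 0.05, triangles the minus strand. The 2 ribosomal RNAs lie nearer 0 than any mRNA, and MT-TR, MT-TH and MT-TS2 lie lowest, from -3.73 to -5.99.

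Against 0 uM, 20 uM PTUPB lowered 6 of 35 members and raised 0 at a limma adjusted p under 0.05, where 18.2% of all genes fell and 15.9% rose. The members fell at about the share of all genes, so this count does not set them apart. In either direction 34.2% of all genes were called, a larger share than of the members. MT-CO2 was the only mRNA among the 6 called (-1.45 ± 0.43 SE, limma adjusted p 0.047). MT-CO3 (-1.41, 0.052) and MT-CYB (-1.19, 0.067) followed and did not pass. MT-CO2 was called in 7 of 13 alternative settings. It did not pass by limma without the control (-1.90, adjusted p 0.054), without the enzalutamide library (-1.01, 0.22), without either library at 20 uM, with a pseudocount of 0.1 (adjusted p 0.071) or without the filter on low genes. Conversely, 6 mRNAs were called as falling in TPM and 5 by limma-voom on recovered fragments. Without the control 3 members were called, and without the enzalutamide library 1 member, MT-TR. The 2 pairs of libraries differed. Without enzalutamide the mRNA median was -0.19 and 1 of 13 was lower by at least 1, against 12.7% of genes lower and 9.47% higher. With enzalutamide on both sides it was -1.14 and 7 of 13 were lower by at least 1, against 15.8% lower and 13.5% higher.

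Enzalutamide at 20 uM PTUPB, by contrast, gave a median mRNA difference of 0.18 with 0 of 13 past the margin, where 3.83% of genes were higher and 2.90% lower. The sign of this median turned with scaling, to -0.14 in TPM, -0.03 by total fragments and -0.01 by fragments outside the mitochondrial genome. The combination at 20 uM had a median of -0.01 against the control, with 0 of 13 past the margin, against 14.0% of genes higher and 15.0% lower, and its median was -0.26 to -0.34 under the other scalings. Across the 3 PTUPB doses, the difference that enzalutamide made to the mRNAs was 1.16, 0.17 and 0.18 at 0, 10 and 20 uM. The enzalutamide by dose term above is linear in dose, so it does not describe a step between 0 and 10 uM. Such a step was not tested.

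The make-up of the mRNA pool was different at 20 uM. Complex I mRNAs took 32.4% of the summed FPKM of the 13 mRNAs in the control, 33.3% with enzalutamide, 34.7% and 35.5% at 10 uM without and with enzalutamide, and 43.2% and 47.3% at 20 uM. Complex IV mRNAs took 49.1%, 48.4%, 46.7%, 45.9%, 40.1% and 36.6% in the same order. The 2 libraries at 20 uM stood apart from the other 4 in both shares, and the shares of complex V (12.8% and 13.2% against 13.9% to 14.2%) and complex III (3.25% and 3.53% against 4.35% to 4.53%) were lower too. The shift was not even within a complex. The overlapping MT-ND4L and MT-ND4 held 11.5% and 10.9% at 20 uM PTUPB alone, and 12.5% and 13.2% with enzalutamide. In the control they held 7.92% and 7.70%. The other complex I shares were also higher at 20 uM, each by less. MT-CO2 and MT-CO3 had lower shares at 20 uM. For MT-CO1 the other 4 libraries gave 20.8% to 22.4%. At 20 uM PTUPB alone MT-CO1 lay within this range, and with enzalutamide it was 19.5%. Such shares are quotients within a library, and scaling the library does not move them.

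Quotients of single mRNAs showed where the shift lay. MT-CO3 to MT-ND4 was 1.44 in the control, 1.27 with enzalutamide, 1.24 and 1.17 at 10 uM without and with enzalutamide, and 0.729 and 0.486 at 20 uM. MT-CO2 to MT-CO1, both complex IV, was 0.660 to 0.799 in the 4 libraries at 0 or 10 uM and 0.459 and 0.548 at 20 uM, so the mRNAs of 1 complex were unequally low. MT-CYB to MT-ND6, neighbours on opposite strands, was 1.37 to 1.57 and then 0.937 and 0.768. The overlapping pairs kept their quotients, MT-ATP8 to MT-ATP6 at 0.165 to 0.194 and MT-ND4L to MT-ND4 at 0.946 to 1.08 over all 6 libraries, with no separation by dose. Genes of such a pair overlap with no transfer RNA between them, so their values are not independent and the steady quotients are no separate result. In rank order MT-CO2 was the second mRNA in each library at 0 or 10 uM and the fifth in both at 20 uM, where MT-ND4L or MT-ND4 took its place.

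**Figure D3:**
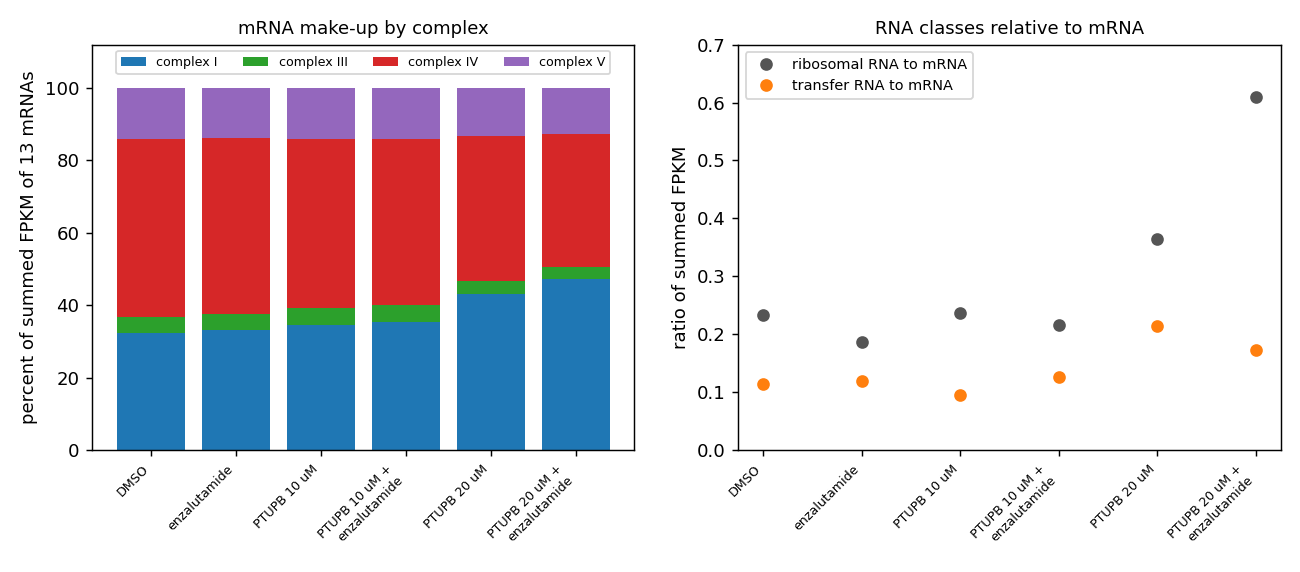
Left, percent of the summed FPKM of 13 mRNAs held by each respiratory complex, 1 bar per library; right, ratio of summed ribosomal RNA and of summed transfer RNA to summed mRNA (FPKM), 1 point per library. Complex I reaches 43.2% and 47.3% and the ribosomal RNA ratio 0.365 and 0.609 in the libraries at 20 uM PTUPB.

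The 3′ ends of the mRNAs differ in a way that bears on their polyadenylation, because some genes stop within the last codon and the poly(A) tail supplies the rest. Of the 13 mRNA genes 7 end, as annotated, in a complete last codon and 6 in 1 or 2 bases of a stop codon. The complete last codon was AGA in MT-CO1, AGG in MT-ND6 and TAA or TAG in the others. The last annotated base of MT-ATP6, chrM:9207, is also the first base of MT-CO3. MT-ATP6 is counted among the 7 by its annotation only, and where its mRNA ends was not tested. The ends of 4 mRNAs that fell between the doses and of MT-ND4, the mRNA with the smallest effect, are shown as the last 30 bases, with the stop codon or its encoded part in capitals.
MT-CO2: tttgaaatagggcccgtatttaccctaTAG
MT-ATP6: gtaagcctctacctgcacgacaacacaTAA
MT-CO3: tgtatgtctccatctattgatgagggtctT
MT-CYB: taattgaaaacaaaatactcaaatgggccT
MT-ND4: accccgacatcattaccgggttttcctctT

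Both kinds of end occurred among the mRNAs that fell. The median effect between the doses was -1.36 (range -1.85 to -0.89) over the 7 annotated with a complete last codon. These include MT-ATP6, and MT-CO1 and MT-ND6 with AGA and AGG. The median was -1.11 (range -1.87 to -0.86) over the 6 without, and the ranges overlapped. Across the 13 mRNAs, which share their libraries, the effect had a Pearson correlation of 0.07 with length and -0.36 with GC content, given as a description.

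Relative to the control, MT-RNR2 stood higher than any mRNA in both libraries at 20 uM PTUPB. For MT-RNR1 this held only in the library with enzalutamide. MT-RNR2, the large-subunit RNA, stood at 7802 FPKM in the control, 14458 with enzalutamide, 17180 and 17743 at 10 uM PTUPB without and with enzalutamide, and 10783 and 20832 at 20 uM. MT-RNR1, the small-subunit RNA, gave 3075, 4910, 5152, 5107, 2649 and 5057 FPKM. At 20 uM PTUPB alone MT-RNR1 was thus below the control, as was the median of the mRNAs. With enzalutamide MT-RNR1 was close to the 10 uM libraries. The difference that enzalutamide made at 20 uM was 0.93 and 0.95 on the log2 scale for the 2 ribosomal RNAs, while no mRNA exceeded 0.48 there. Neither ribosomal RNA passed the limma test between the doses (MT-RNR1 -0.49, adjusted p 0.36; MT-RNR2 -0.22, adjusted p 0.72), nor did they after any alternative scaling.

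The ratio of summed ribosomal RNA to summed mRNA was 0.234 in the control, 0.186 with enzalutamide, 0.236 and 0.216 at 10 uM without and with enzalutamide, and 0.365 and 0.609 at 20 uM. Both libraries at 20 uM lay above the other 4, with an exact two-sided permutation p of 0.133, the smallest that 2 libraries against 4 can give. MT-RNR2 to MT-RNR1 was 2.54, 2.94, 3.33, 3.47, 4.07 and 4.12 in the order used above, highest at 20 uM. The 2 RNAs are neighbours on the same strand, separated by the transfer RNA MT-TV. No source used here says how polyadenylated RNA was selected, and the levels of ribosomal RNA relative to mRNA refer to RNA as captured in these libraries.

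Transfer RNAs were shorter than the 150-base reads, and how much of each count came from free transfer RNA or from longer precursors was not tested. MT-TN, MT-TC and MT-TP together gave 92.3% to 96.9% of all transfer RNA fragments. MT-TN held 5036 fragments in the control, 12914 with enzalutamide, 7295 and 10787 at 10 uM without and with enzalutamide, and 5863 and 4343 at 20 uM. MT-TC held 2261, 6363, 3378, 5519, 3613 and 2518 fragments in that order, and MT-TP held 3031, 4328, 6440, 6972, 3048 and 2109. MT-TN and MT-TC, which lie in 1 cluster, were highest with enzalutamide, and MT-TP was highest at 10 uM PTUPB. In FPKM MT-TN reached 2308 to 6263, as much as an mRNA, while the highest of the other 19 transfer RNAs in each library lay between 96.5 and 316 FPKM. None of the 3 was called at 20 uM, with effects between the doses of -0.39 for MT-TN, -0.09 for MT-TC and -0.98 for MT-TP (limma adjusted p 0.53, 0.89 and 0.072). Summed over all 22, transfer RNA to mRNA was 0.114 in the control, 0.119 with enzalutamide, 0.095 and 0.126 at 10 uM, and 0.213 and 0.172 at 20 uM. Here too both 20 uM libraries lay above the other 4, with the same smallest possible exact permutation p of 0.133.

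MT-TR, for arginine, held 99 fragments in the control, 129 with enzalutamide, 157 and 137 at 10 uM PTUPB without and with enzalutamide, and 1 and 0 at 20 uM. The 2 libraries at 20 uM were thus near zero and the others far from it. The control exceeded 20 uM PTUPB by a ratio of 78.2 in FPKM (95% interval 13.7 to 3121 from counting error). With 3 fragments put in place of a count of 0, 20 uM with enzalutamide was 27.9-fold lower than enzalutamide alone. The other count was taken as exact, and the exact Poisson 95% upper limit of a count of 0 is 3.69, so this fold is not a lower limit. By limma the effect of 20 uM was -5.57 ± 0.30 SE (adjusted p 0.0019), and it was called in 13 of 13 alternative settings. The 2 flanking mRNAs, MT-ND3 and MT-ND4L, were not called. MT-TR stood at 1.06% to 1.81% of their mean FPKM in the 4 libraries at 0 or 10 uM and at 0.022% and 0% at 20 uM.

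MT-TH and MT-TS2, for histidine and serine, lie next to each other between MT-ND4 and MT-ND5. MT-TH held 54, 68, 84, 67, 10 and 0 fragments and MT-TS2 held 22, 28, 43, 32, 3 and 0 in the order of libraries used above. Both libraries at 20 uM lay below all others for each. MT-TR, MT-TH, MT-TS2, MT-TI and MT-TA were chosen by their fall at 20 uM, so such a separation is no separate result. Its share over all genes was not counted. The ratio of the control to 20 uM PTUPB was 4.27 (95% interval 2.15 to 9.40) for MT-TH and 5.80 (1.74 to 30.2) for MT-TS2. With enzalutamide on both sides they were 14.7-fold and 6.06-fold lower, with 3 fragments in place of 0 as for MT-TR, and these are not lower limits. The limma effects of 20 uM were -3.55 (adjusted p 0.019) and -3.12 (adjusted p 0.0081). Their neighbour MT-TL2, for leucine, was not called, at 1.88, 1.99, 4.29, 6.93, 2.38 and 5.37 FPKM.

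MT-TI, for isoleucine, held 29, 44, 21, 28, 0 and 6 fragments, and MT-TA, for alanine, held 16, 30, 11, 25, 2 and 0. For both, the libraries at 20 uM were below the other 4, which again is no separate result. The counts were so low that the fold has a wide interval. With 3 fragments in place of 0, MT-TI was 7.64-fold lower at 20 uM PTUPB than in the control, which is not a lower limit. Where enzalutamide was present its ratio was 4.76 (95% interval 2.02 to 13.7). The ratio for MT-TA was 6.32 (1.49 to 56.7) without enzalutamide, and it was 6.50-fold lower with enzalutamide, by the same replacement of 0. MT-TI shares 3 bases with MT-TQ on the other strand, and no source used here says whether counting used strand. Without the filter on low genes MT-TR remained called at 20 uM, and MT-TH, MT-TS2, MT-TI and MT-TA did not (adjusted p 0.064 to 0.11 by limma). The same held for limma-voom on recovered fragments, where MT-TR alone of the transfer RNAs was called and the adjusted p of the other 4 ran from 0.053 to 0.073.

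**Figure D4:**
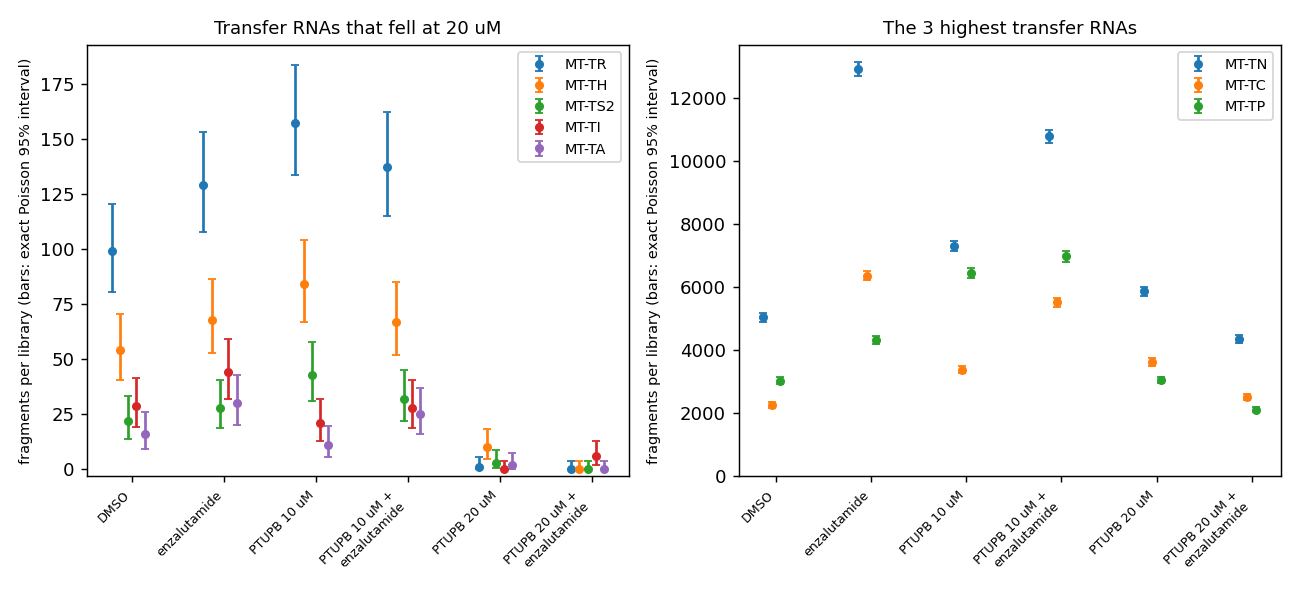
Fragments per library of the 5 transfer RNAs that fell at 20 uM PTUPB (left) and of the 3 highest (right), with exact Poisson 95% intervals for counting error, 1 library per group. The 5 on the left hold 0 to 10 fragments at 20 uM and 11 to 157 elsewhere, whereas MT-TN, MT-TC and MT-TP hold at least 2109 in each library.

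Other transfer RNAs had their own patterns. MT-TE, for glutamate, gave 10.7, 13.9, 43.1, 51.0, 23.9 and 16.6 FPKM, highest at 10 uM, and fell between the doses by 1.19 (limma adjusted p 0.021). MT-TL1, for leucine, gave 128, 196, 316, 223, 96.5 and 148 FPKM and fell by 1.15 (adjusted p 0.049, called in 6 of 13 alternatives). MT-TM, for methionine, gave 5.90, 4.69, 18.4, 18.4, 1.87 and 10.4 FPKM and did not pass between the doses (adjusted p 0.055). These 3 were highest at 10 uM PTUPB in both libraries. MT-TS1, for serine, gave 8.24, 5.13, 3.43, 23.0, 27.6 and 29.2 FPKM and was the only member with an effect above 1 at 20 uM (1.97, limma adjusted p 0.076). The low ones, MT-TD, MT-TG, MT-TK, MT-TQ and MT-TY, stayed between 0.98 and 59.1 FPKM and were not called in either contrast. MT-TF was listed with 0 fragments in 5 libraries and 1 in the sixth.

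Nuclear copies of mitochondrial sequence can share reads with the members. The table held 407 of them, of which 306 were at 0 in every library and 9 had a mean of at least 1 FPKM. The highest, MTATP6P1 on chromosome 1, ranged from 280 to 799 FPKM, or 4.49% to 7.92% of MT-ATP6. MTND2P28 and MTCO1P12, in the same region of chromosome 1, ranged from 12.8 to 37.8 and from 10.2 to 28.7 FPKM. They came to at most 1.64% of MT-ND2 and 0.14% of MT-CO1. MTATP6P1 stood at 7.89% and 7.92% of MT-ATP6 at 20 uM without and with enzalutamide, and at 4.49% to 6.86% elsewhere. MTND2P28 was likewise highest at 20 uM (1.64% and 1.05% of MT-ND2 against 0.73% to 0.98%). The reads assigned to the copies were few next to those of the genes they resemble. How many reads are shared was not tested.

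The nuclear genes that make and handle mitochondrial RNA were read from fixed lists. No gene of any list was called for enzalutamide or for 10 uM PTUPB. At 20 uM PTUPB the factors of transcription and termination had 3 of 10 falling and 0 rising, with a list median of -0.53 against 0.00 over all genes. MTERF2 and MTERF1, termination-factor family members, fell by 0.94 and 0.88 (limma adjusted p 0.016 and 0.019), and the promoter factor TFB2M fell by 0.65 (0.047). The packaging and promoter factor TFAM (-0.68, adjusted p 0.080) and the polymerase POLRMT (-0.41, 0.12) did not pass. In replication and the nucleoid 2 of 16 rose and 2 fell, among them RRM2B, a ribonucleotide reductase subunit induced by p53 (2.14, adjusted p 0.0029), RNASEH1 (0.88) and the nuclease DNA2 (-1.80).

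Of the 3 tested genes for cutting at transfer RNA ends 0 were called at 20 uM. RNA stability and polyadenylation had 2 of 14 rising and 4 falling. FASTKD1 (-1.03) and FASTKD5 (-0.92), which bind mitochondrial RNA, fell, and the pseudouridine synthase RPUSD3 rose (0.87), at limma adjusted p of 0.011 to 0.020. LRPPRC, which holds mRNAs stable, did not pass (-0.28, adjusted p 0.25). In RNA decay 1 of 5 rose, the helicase SUPV3L1, from 13.9 FPKM in the control to 35.3 at 20 uM PTUPB (effect 1.47, limma adjusted p 0.0053). Transfer RNA modification had 2 of 17 rising and 3 falling, with ALKBH1 (1.07), OSGEPL1 (-1.25) and TRIT1 (-0.92). The aminoacyl-tRNA synthetases had 3 of 21 rising and 5 falling, with GARS1 at 1.87, IARS2 at -1.29 and LARS2 at -1.24. GARS1 serves the cytosol as well as mitochondria.

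Among ribosomal RNA modifiers 0 of 8 were called at 20 uM, and among translation factors 3 of 13 rose (MTIF3 0.88, GUF1 0.76 and MTIF2 0.72) and 1 fell. Regulators of biogenesis had 1 of 9 rising (SIRT1 0.56) and 1 falling (the nuclear receptor ESRRA, -0.97), while PPARGC1A, a coactivator of biogenesis, was at or under 0.39 FPKM and was not tested. Chaperones and proteases had 3 of 13 rising and 1 falling, with HSPA9 at 1.13, YME1L1 at 0.95 and the chaperonin subunit HSPE1 at -1.93. Mitophagy and mitochondrial division or fusion had 2 of 12 rising, PINK1 (0.93) and MFF (0.82), and 0 falling. The share called lay below the 34.2% of all genes called at this dose in each list but those of RNA stability and of the synthetases, and the counts by themselves do not set any list apart.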

How the data were processed

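RNA-seq libraries (mRNA-Seq, paired 150-base reads) of 6 treatment groups with 1 library each were compared in a single table. The authors deposited FPKM values per gene. Per the submitters' processing notes, HISAT and Cufflinks were used, without versions; the genome build and use of strand are not given in the sources used here. Fragments were recovered as FPKM times exon length in GENCODE 29; all gene identifiers matched. Effects were fitted with limma 3.58.1 (R 4.3.3, intensity trend) on log2(FPKM + 1) over 12960 genes with a mean of at least 1 FPKM, with PTUPB as 3 levels plus enzalutamide and 2 residual degrees of freedom. P-values were adjusted by Benjamini-Hochberg over all genes at 0.05 and are two-sided. The fit was tested on simulated data, where it recovered most of the changed genes and the share of false calls exceeded the nominal level. Pairs of libraries were counted at a log2 difference of 1. Figures and counts used Python 3.11.15, pandas 2.3.3, scipy 1.17.1 and matplotlib 3.10.9. Alternatives were 3 other scalings, a pseudocount of 0.1, no filter, no trend, limma-voom on fragments and leaving out each library.

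Named were all members, up to 3 genes per nuclear list with the largest 20 uM effect among those called, TFAM, POLRMT, TFB2M, LRPPRC and PPARGC1A, and the 3 highest nuclear copies. The members and lists were chosen with earlier results of these data known. Among the lists only these genes are named, by that rule. Reads shared with paralogs, overlapping genes or nuclear copies make single values uncertain, also where this is not repeated.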

Additional observations from a re-analysis of the deposited data

How the results depend on the processing

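No paired analysis was possible because each group had 1 library and the labels give no replicate numbers; the additive model already compares PTUPB doses within enzalutamide status. No direction called for a member reversed under any alternative. For enzalutamide and for 10 uM PTUPB 0 members were called under all 13 alternatives. Over all genes the enzalutamide effect gave 9 calls after rescaling to TPM and 1 by limma-voom, against 0. For 20 uM against 0, members called were 12 in TPM and 1 without the filter on low genes, against 6, and 1 (without enzalutamide alone) to 10 (without 20 uM PTUPB alone) when a library was left out; all genes called were 1201 without the filter, against 4426, and 324 to 5403 with a library left out. For 20 against 10 uM, members called were 24 in TPM, 21 by total fragments, 20 by fragments outside the mitochondrial genome, 19 without the trend and 1 without the filter, against 12, and 4 (without 10 uM PTUPB alone) to 15 with a library left out; all genes called were 868 without the filter, against 4325, and 838 to 5591. In TPM the rising share of those calls was 59.2%, and 37.4% by fragments outside the mitochondrial genome, against 49.3%. The enzalutamide by dose term called 12 members in TPM, 2 by total fragments and 3 by fragments outside the mitochondrial genome, against 0, and 301, 9 and 64 genes in all, with 23 by limma-voom; leaving out a library left it no residual degree of freedom, so it was not run. The cause of these shifts was not tested. The mitochondrial share was 23.7%, 38.2%, 38.4%, 41.9%, 21.8% and 22.8% of TPM from control to the 20 uM combination, in the order of the report. Counting the 13 mRNAs only it was 4.78%, 9.48%, 9.12%, 10.4%, 3.73% and 3.68% of fragments. With 1 library per group, the spread between cultures is unknown, and transfer RNAs with few fragments have wide counting intervals.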
